A study of Mus musculus with 8 samples.

Results

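Chemokines are small secreted proteins that guide leukocytes into and within tissues, and the genes for these ligands and for their receptors were followed here in mouse liver after knockdown of Eif4ebp3. Members were the genes whose symbol in the deposited comparison begins with Ccl or Cxcl followed by a digit, or is Ccr or Cxcr followed by a number, leaving out symbols that contain -ps. This rule gave 59 of 55536 genes, of which 43 were ligand genes and 16 receptor genes. The 59 entries carry 54 distinct symbols, because Ccl19, Ccl21a, Ccl21b and Ccl27 each have more than 1 identifier. The knockdown group (n = 4) consisted of lean, wild-type C57BL/6 mice aged 2 months that had received an adenovirus with a short hairpin RNA against Eif4ebp3, a restrainer of cap-dependent translation initiation. The control group (n = 4) was of the same strain and age and had received the same kind of virus with a hairpin against lacZ, a bacterial gene that mice lack. Both groups were given 0.1 OD of adenovirus and killed 1 week later after an overnight fast, so the control livers were virus-treated livers too. Neither the sex of the mice nor the promoter driving the hairpin is stated in the labels.

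In the liver, chemokines are made by hepatocytes, Kupffer cells, sinusoidal endothelium and stellate cells, and their receptors sit mainly on the leukocytes that respond to them. Receptors of both classes are G protein-coupled and turn a ligand gradient into directed movement. CXC ligands have 1 residue between their first pair of cysteines, and CC ligands have none. CXC ligands with a Glu-Leu-Arg motif attract neutrophils, the interferon-inducible CXC ligands attract activated T and NK cells, and the inflammatory CC ligands attract monocytes, macrophages and T cells. A further set, including Cxcl12, is made constantly and positions resident cells.

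Eif4ebp3 itself held 9.62, 13.9, 37.2 and 19.5 normalised CPM (counts scaled to a common library size) in knockdown livers 1 to 4, against 289, 216, 204 and 49.3 CPM in control livers 1 to 4. Every knockdown value lay below every control value, and control liver 4 lay nearest to the knockdown group. The log2 fold change (knockdown over control, here and throughout) was -3.24 ± 0.53 (SE; adjusted p = 0.000379, edgeR). Control liver 4 also stood apart in the chemokine genes: of the 21 members that rose, 17 (81.0%) had their highest control value in it, against 53.5% of all 4528 genes that rose. Its log2 ratio to the mean of the other 3 controls had a median of 0.84 over these members and 0.20 over all genes that rose. Total counts were 24371461 to 32389444 per liver. The samples coded D in the labels, knockdown liver 4 and control liver 4, are 1 per group, and what the letter stands for is not stated. The hepatocyte markers summed to 61353 to 80135 CPM in knockdown livers and 75170.0 to 99747 CPM in control livers, so the libraries are those of liver.

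Of the 59 members, 33 had enough counts to be tested. Of these, 21 rose and 4 fell in knockdown livers at an adjusted p under 0.05 (edgeR's quasi-likelihood test, Benjamini-Hochberg adjustment over all 15375 genes tested), and 8 did not pass. Over all genes tested, 29.5% rose and 27.8% fell, together 57.2%. In bulk tissue, a change in the number of cells of a type and a change in RNA per cell cannot be told apart. The members that rose were 15 ligands and 6 receptors, and those that fell were Cxcl12, Ccl25, Ccl27a and the receptor gene Ccr9. The median log2 fold change was 1.40 over the 33 tested members and 0.00 over all genes. Groups did not overlap for 19 members with higher and 3 with lower values in knockdown livers, where 27.4% and 24.7% of all genes tested did the same, together 52.1%. A member can pass the count filter through the knockdown livers alone, as for example Cxcl5, Ccl2, Ccl3, Ccl4 and Ccl7 did. The counts of members therefore describe the measured members and are no test of the family. Without normalisation factors (total-count scaling) the median gene moved to 0.56 on the log2 scale, and 22 members rose and 2 fell, against 63.9% and 7.72% of all genes, together 71.7%. Without control liver 4, 22 members rose and 3 fell. The 22 include Ccl8, which passed the count filter in that fit (3.25, adjusted p = 0.00950, edgeR). In the authors' deposited table, 23 members are marked as up and 1, Cxcl12, as down. The shares of all 55536 genes listed there, with or without counts, are 4.60% and 2.17%. The rule behind the authors' mark is not stated and is not an adjusted p under 0.05 alone. In their comparison Ccl9 (log2 fold change 0.72, adjusted p = 2.93e-09), Ccl25 (-0.90, 2.25e-11) and Ccl27a (-0.62, 0.00270) are not marked. Of the 23 marked as up, 20 were tested here and all 20 rose.

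**Figure D1:**
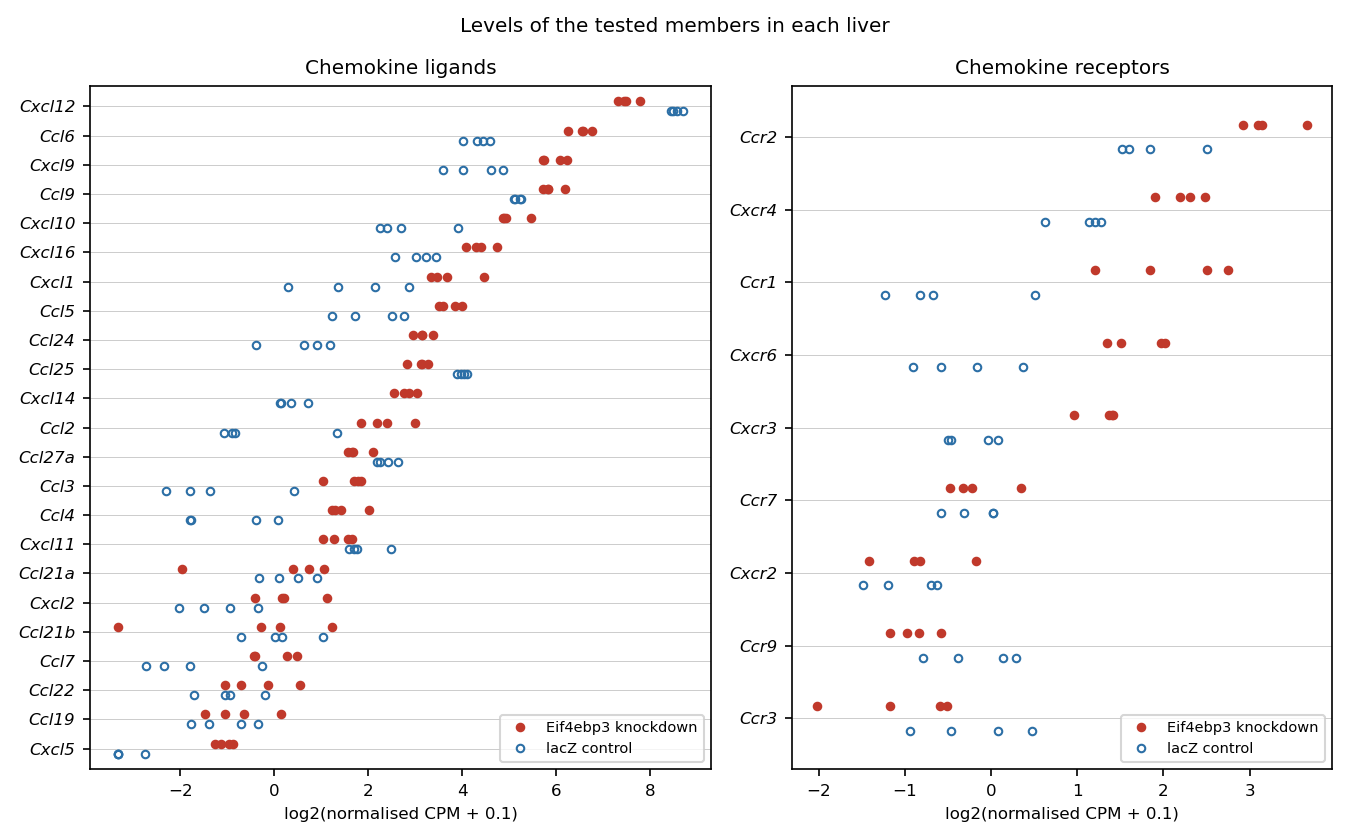
Normalised level of the tested ligands (left) and receptors (right) reported here, in every liver, as log2(CPM + 0.1); filled circles are the 4 knockdown livers and open circles the 4 control livers, with genes ordered by their knockdown mean. Cxcl12 lies furthest right in both groups, with knockdown values of 159 to 222 CPM and control values of 347 to 415 CPM, and for Ccl6, Cxcl9 and Ccl24 the filled circles all lie to the right of the open ones.

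**Figure D2:**
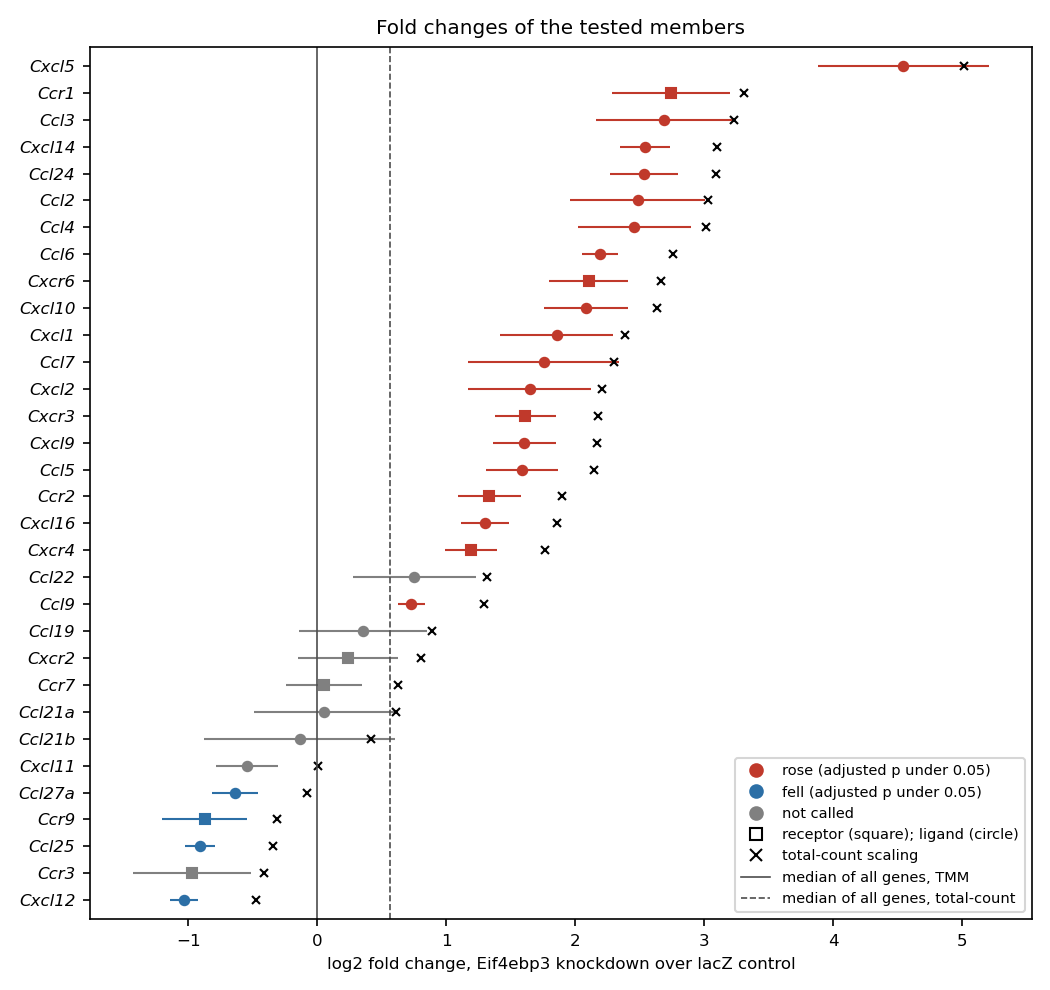
Log2 fold change of the tested members reported here, knockdown over control, with its standard error (bars), for ligands (circles) and receptors (squares); crosses give the value without normalisation factors, and vertical lines give the median of all genes under each scaling (0.00 and 0.56). The members that rose lie between 0.73 and 4.55, and Cxcl12 at -1.03 is the lowest.

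The CXC ligands that attract neutrophils rose. Cxcl1, the main mouse ligand of Cxcr2 together with Cxcl2, held 12.7, 10.96, 21.9 and 9.95 CPM in knockdown livers 1 to 4, against 2.45, 4.35, 1.13 and 7.22 CPM in control livers 1 to 4. The groups did not overlap, with knockdown liver 3 and control liver 4 the highest of their groups. The log2 fold change was 1.86 ± 0.44 (SE; adjusted p = 0.00384), a 3.62-fold higher level. Cxcl2, a ligand of the same receptor, held 2.08, 1.02, 0.653 and 1.05 CPM in knockdown livers, against 0.144, 0.421, 0.257 and 0.685 CPM in control livers. Control liver 4 lay just above knockdown liver 3 for Cxcl2, and the log2 fold change was 1.65 ± 0.48 (adjusted p = 0.0123). Cxcl5, which attracts neutrophils to epithelia, was at the edge of detection, with 51 counts over the knockdown livers against 1 count over the control livers, in control liver 1. Its ratio was 31.8 (exact 95% counting interval 5.45 to 1279, covering counting error only), and its fitted log2 fold change of 4.55 was 6.44 without control liver 1. Cxcl3 did not pass the count filter, with 28 counts over the knockdown livers against 0 in the control livers. It was 5.81-fold higher with the control count set to a floor of 3 over the group. The knockdown count is taken as exact in this value. Cxcl15, known from lung, had no counts in any liver.

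These neighbouring genes lie on chromosome 5, Cxcl5 at 90759360 to 90761624, Cxcl3 at 90786103 to 90789600, Cxcl1 at 90891241 to 90893115 and Cxcl2 at 90903871 to 90905938 (mm10). Promoters of 300 bases (250 before to 50 after the RefSeq start) were searched on both strands for a kappaB-like motif (GGG, any 2 bases, TTTCC) and an interferon-response-like motif (TTTC, any 2 bases, TTTC). The sequences of Cxcl1, Cxcl2 and Cxcl3 are shown because all 3 hold the same match, GGGAATTTCC, at 71, 97 and 73 bases before the start, and that of Cxcl10, described further on, because it holds a match to the interferon-response letters. Capitals mark every match to either pattern. No matches overlap, and the sequences are RefSeq's on GRCm38.p6, on the gene's strand.
Cxcl1, chr5:90890995-90891294, plus strand: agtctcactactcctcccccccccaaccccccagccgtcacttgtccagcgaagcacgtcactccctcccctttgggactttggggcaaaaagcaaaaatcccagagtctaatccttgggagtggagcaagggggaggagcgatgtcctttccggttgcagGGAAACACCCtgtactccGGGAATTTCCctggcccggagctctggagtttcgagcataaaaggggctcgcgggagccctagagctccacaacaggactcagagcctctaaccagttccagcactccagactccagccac
Cxcl2, chr5:90903649-90903948, plus strand: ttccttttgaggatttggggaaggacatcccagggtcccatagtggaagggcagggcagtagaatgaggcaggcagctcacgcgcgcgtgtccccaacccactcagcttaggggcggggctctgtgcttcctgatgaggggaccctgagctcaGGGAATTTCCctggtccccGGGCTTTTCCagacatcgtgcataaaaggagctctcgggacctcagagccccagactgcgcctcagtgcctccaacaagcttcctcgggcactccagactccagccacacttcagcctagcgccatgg
Cxcl3, chr5:90785851-90786150, plus strand: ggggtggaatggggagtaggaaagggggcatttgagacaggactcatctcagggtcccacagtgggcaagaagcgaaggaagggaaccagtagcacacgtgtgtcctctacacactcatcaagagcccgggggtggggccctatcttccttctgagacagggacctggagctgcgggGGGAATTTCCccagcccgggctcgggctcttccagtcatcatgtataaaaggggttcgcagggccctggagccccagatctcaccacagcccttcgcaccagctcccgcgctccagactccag
Cxcl10, chr5:92348840-92349139, minus strand: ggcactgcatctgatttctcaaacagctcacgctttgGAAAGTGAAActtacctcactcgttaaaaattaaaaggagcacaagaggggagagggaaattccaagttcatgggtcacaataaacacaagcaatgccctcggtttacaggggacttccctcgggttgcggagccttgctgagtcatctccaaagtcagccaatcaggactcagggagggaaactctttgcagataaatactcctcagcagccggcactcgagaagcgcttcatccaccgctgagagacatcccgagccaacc
The kappaB-like letters stand in 1.63% and the interferon-response-like letters in 3.44% of 32851 mouse promoters of this length, and in at least 1 promoter of 1.89% and 3.99% of 27025 genes. Promoter sequences were at hand for 13 of the 21 members that rose, of which 3 (Ccl9, Cxcl1 and Cxcl2) held the kappaB-like letters and 2 (Cxcl10 and Cxcl14) the interferon-response-like letters. Of the 4 members that fell, all had a promoter entry and 0 held either pattern. Of the 8 tested members that did not pass, 6 had an entry, of which 1 (Ccr3) held the kappaB-like and 1 (Ccl19) the interferon-response-like letters, so a match was not confined to members that rose. A match is a description of these windows and not evidence that a factor binds there.

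Of the receptors for these ligands, Cxcr2 was tested and did not pass. Cxcr2, the neutrophil receptor for Cxcl1, Cxcl2, Cxcl3 and Cxcl5, held 0.789, 0.465, 0.275 and 0.436 CPM in knockdown livers 1 to 4 and 0.336, 0.514, 0.257 and 0.548 CPM in control livers 1 to 4. The groups overlapped, with knockdown liver 1 the highest, and the log2 fold change was 0.24 ± 0.39 (SE; adjusted p = 0.629). Cxcr1, its close relative, stayed under the filter with 13 counts over the knockdown livers and 12 over the control livers. Of 10 neutrophil markers, 5 could be tested and 1, Csf3r, rose. Under total-count scaling 3 rose, and with the main scaling 2 rose without knockdown liver 3 or control liver 4. The shares of all genes tested that rose were 29.5% and, under total-count scaling, 63.9%. The summed level of the list was 11.2 to 20.2 CPM in knockdown livers and 4.58 to 11.3 CPM in control livers.

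The interferon-inducible CXC ligands Cxcl9 and Cxcl10 and their receptor Cxcr3 rose, and Cxcl11 did not. Cxcl9, which draws activated T cells, held 75.2, 67.3, 52.9 and 53.6 CPM in knockdown livers 1 to 4, against 16.2, 11.9, 24.4 and 29.2 CPM in control livers 1 to 4. Cxcl10, a second ligand of Cxcr3, held 44.0, 29.8, 30.3 and 29.2 CPM in knockdown livers, against 5.19, 4.63, 6.43 and 15.0 CPM in control livers. Neither gene's groups overlapped, and control liver 4 was the highest control for both. The log2 fold changes were 1.61 ± 0.24 for Cxcl9 (adjusted p = 0.000214) and 2.09 ± 0.33 for Cxcl10 (adjusted p = 0.000276). Cxcr3, found on activated T and NK cells, held 2.56, 2.56, 2.48 and 1.85 CPM in knockdown livers, against 0.624, 0.608, 0.875 and 0.959 CPM in control livers. Its log2 fold change of 1.61 ± 0.24 (adjusted p = 0.000180) came without overlap. Cxcl11, whose reading frame is broken in C57BL/6 mice and which the annotation classes as a polymorphic pseudogene, held 2.87, 1.95, 3.06 and 2.31 CPM in knockdown livers, against 3.12, 3.27, 2.93 and 5.48 CPM in control livers. Its log2 fold change of -0.55 ± 0.24 did not pass (adjusted p = 0.0755). Cxcl9, Cxcl10 and Cxcl11 are adjacent on chromosome 5, between 92321347 and 92365485 on the minus strand. Exons of Cxcl10 overlap those of Art3 on the other strand, a gene at 1.78 ± 0.378 CPM in knockdown livers and 1.56 ± 0.172 CPM in control livers (SD, n = 4 each), and whether the counting used strand is not stated.

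The MIP family and RANTES, inflammatory CC ligands, all rose. Ccl6, a macrophage and myeloid product that signals through Ccr1, held 94.5, 93.9, 75.9 and 109 CPM in knockdown livers 1 to 4, against 19.9, 21.6, 16.1 and 23.98 CPM in control livers 1 to 4. Its values were tight within groups and far apart between them, with a log2 fold change of 2.19 ± 0.14 (SE; adjusted p = 8.37e-07), the smallest p of any member. Ccl9, another Ccr1 ligand, held 52.6, 56.8, 56.8 and 73.0 CPM in knockdown livers, against 34.1, 38.1, 34.9 and 37.4 CPM in control livers. With 0.73 ± 0.10 (adjusted p = 0.000149) it was the smallest of the increases that passed. Ccl5 (RANTES), made by T and NK cells, held 15.9, 14.2, 11.3 and 12.0 CPM in knockdown livers, against 2.26, 3.18, 5.61 and 6.71 CPM in control livers, a log2 fold change of 1.59 ± 0.28 (adjusted p = 0.000649).

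Ccl3 and Ccl4, the macrophage inflammatory proteins 1 alpha and 1 beta, moved on a lower level. Ccl3 held 3.12, 3.34, 1.96 and 3.51 CPM in knockdown livers 1 to 4, against 0.288, 0.187, 0.103 and 1.23 CPM in control livers 1 to 4. Ccl4 held 3.98, 2.56, 2.24 and 2.36 CPM in knockdown livers, against 0.192, 0.187, 0.669 and 0.959 CPM in control livers. Groups did not overlap for either gene, and control liver 4 was the highest control for both. The log2 fold changes were 2.68 ± 0.53 for Ccl3 (adjusted p = 0.00128; 3.91 without control liver 4) and 2.46 ± 0.44 for Ccl4 (adjusted p = 0.000673).

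The monocyte-attracting ligands Ccl2 and Ccl7 rose as well. Ccl2, the principal ligand of the monocyte receptor Ccr2, held 7.83, 5.20, 3.51 and 4.46 CPM in knockdown livers 1 to 4, against 0.432, 0.374, 0.463 and 2.42 CPM in control livers 1 to 4. Control liver 4 stood well above the other controls and still lay below every knockdown liver. The log2 fold change was 2.48 ± 0.52 (SE; adjusted p = 0.00194) and 3.62 without control liver 4. Ccl7, a second Ccr2 ligand, held 1.10, 0.640, 0.653 and 1.31 CPM in knockdown livers, against 0.0961, 0.187, 0.0515 and 0.731 CPM in control livers. Its groups overlapped through control liver 4, and the log2 fold change of 1.76 ± 0.59 (adjusted p = 0.0242) became 2.99 without that liver. The call was lost without knockdown liver 1 or 4 or control liver 1, 2 or 3, with log2 fold changes of 1.67, 1.54, 1.48, 1.61 and 1.43. Ccl8, a ligand of monocyte receptors that did not pass the filter, had 66 counts over the knockdown livers against 3 over the control livers, a ratio of 13.7 (counting interval 4.49 to 68.1). Ccl12, a rodent relative of Ccl2, had 11 counts over the knockdown livers and 4 over the control livers.

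Among receptors of these inflammatory CC ligands, Ccr1 and Ccr2 rose and Ccr3 did not pass. Ccr2, the monocyte receptor of Ccl2 and Ccl7, held 12.7, 8.72, 7.50 and 8.49 CPM in knockdown livers 1 to 4, against 3.51, 2.76, 2.93 and 5.57 CPM in control livers 1 to 4, with a log2 fold change of 1.33 ± 0.24 (SE; adjusted p = 0.000755). Its lowest knockdown liver lay above the highest control. Ccr1, a receptor of Ccl3, Ccl5, Ccl6 and Ccl9 on monocytes and neutrophils, held 6.63, 3.49, 2.201 and 5.59 CPM in knockdown livers, against 0.528, 0.327, 0.463 and 1.32 CPM in control livers. It varied more within groups, and its log2 fold change of 2.74 ± 0.45 (adjusted p = 0.000414) was 3.34 without control liver 4. Ccr3, the eotaxin receptor of eosinophils, held 0.145 to 0.600 CPM in knockdown livers and 0.421 to 1.29 CPM in control livers, and its log2 fold change of -0.97 ± 0.46 did not pass (adjusted p = 0.0921). Ccl24 (eotaxin 2), a Ccr3 ligand made by macrophages, rose: it held 8.77, 10.4, 8.77 and 7.70 CPM in knockdown livers, against 1.44, 1.78, 0.669 and 2.19 CPM in control livers. Its log2 fold change was 2.53 ± 0.26 (adjusted p = 1.72e-05), without overlap. The other eotaxins stayed under the filter, Ccl11 with 17 counts over the knockdown livers against 3 over the control livers and Ccl26 with none.

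Cxcl12, the most abundant member per length in control livers, fell. Cxcl12 (stromal cell-derived factor 1), the ligand of Cxcr4 that retains lymphocytes and progenitors in tissues, held 175, 159, 222 and 179 CPM in knockdown livers 1 to 4, against 361, 347, 383 and 415 CPM in control livers 1 to 4. The highest knockdown liver lay well below the lowest control, and the log2 fold change was -1.03 ± 0.11 (SE; adjusted p = 1.84e-05), a 2.05-fold lower level. Under total-count scaling the value was -0.47 and still passed (adjusted p = 0.00241). Cxcr4, its receptor on leukocytes, went the other way, with 5.49, 4.48, 3.65 and 4.85 CPM in knockdown livers, against 2.21, 1.45, 2.32 and 2.10 CPM in control livers. The log2 fold change of Cxcr4 was 1.19 ± 0.20 (adjusted p = 0.000453). Cxcl12 lies alone on chromosome 6 at 117168535 to 117181367.

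Other CXC ligands and their receptors rose where tested. Cxcl16, a membrane-bound ligand and scavenger receptor of macrophages and endothelium, held 26.6, 19.4, 20.9 and 17.0 CPM in knockdown livers 1 to 4, against 5.86, 8.04, 9.31 and 10.8 CPM in control livers 1 to 4, a log2 fold change of 1.30 ± 0.19 (SE; adjusted p = 0.000168). Exons of Cxcl16 overlap Zmynd15 on the other strand, at 5.41 ± 0.661 CPM in knockdown livers and 4.36 ± 0.669 CPM in control livers (SD, n = 4 each). Cxcr6, the Cxcl16 receptor that marks liver-resident T and NKT cells, held 3.82, 3.95, 2.75 and 2.44 CPM in knockdown livers, against 0.432, 0.795, 0.566 and 1.19 CPM in control livers, a log2 fold change of 2.10 ± 0.31 (adjusted p = 0.000179). Ligand and receptor thus differed in the same direction, without overlap in either. Cxcl14, an epithelial and stromal ligand without an agreed receptor, held 6.69, 8.08, 7.15 and 5.72 CPM in knockdown livers, against 1.009, 0.982, 1.18 and 1.55 CPM in control livers. Its log2 fold change of 2.54 ± 0.20 (adjusted p = 2.46e-06) had the second smallest p among the members. Cxcl13, the B cell attractant, stayed under the filter with 32 counts over the knockdown livers against 2 over the control livers, a ratio of 9.96 (counting interval 2.54 to 85.8). Its receptor Cxcr5 had 47 counts over the knockdown livers and 34 over the control livers, also under the filter. Exons of Cxcr5 overlap Bcl9l on the other strand, at 64.2 ± 6.29 CPM in knockdown livers and 107 ± 12.3 CPM in control livers (SD, n = 4 each). The reads of Cxcr5 and Bcl9l therefore cannot be told apart without strand.

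Of the 16 entries for CC ligands that guide cells in lymphoid organs, gut and skin, 6 were tested, of which 2 fell and 4 did not pass. Ccl25, the ligand of Ccr9 known from thymus and small intestine, held 9.59, 6.95, 8.63 and 8.75 CPM in knockdown livers 1 to 4, against 17.1, 16.4, 15.7 and 14.7 CPM in control livers 1 to 4. The groups did not overlap, and the log2 fold change was -0.91 ± 0.12 (SE; adjusted p = 6.63e-05) and -0.34 under total-count scaling (adjusted p = 0.0246). Its exons overlap Elavl1 on the other strand, at 33.8 ± 6.53 CPM in knockdown livers and 37.6 ± 6.78 CPM in control livers (SD, n = 4 each). Ccl27a, a skin-homing ligand, held 3.09, 2.85, 4.20 and 3.05 CPM in knockdown livers, against 4.47, 5.24, 4.63 and 6.12 CPM in control livers. Its log2 fold change of -0.64 ± 0.18 passed (adjusted p = 0.00986), but it was -0.08 under total-count scaling (adjusted p = 0.712). Ccl27a shares exon bases with Il11ra1 on the other strand, which fell too (-0.50, adjusted p = 0.000387, edgeR). Il11ra1 held 23.3 ± 2.08 CPM in knockdown livers and 33.0 ± 1.09 CPM in control livers (SD, n = 4 each). The reads of the pair cannot be told apart without strand. Ccl27b and the entries named Ccl27 had 0 or 1 count each. How reads were shared between them and Ccl27a is not stated.

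Ccr9, the Ccl25 receptor of gut-homing lymphocytes, held 0.568, 0.407, 0.344 and 0.462 CPM in knockdown livers 1 to 4, against 0.480, 1.12, 0.669 and 1.00 CPM in control livers 1 to 4. Its groups overlapped, and the log2 fold change was -0.87 ± 0.33 (SE; adjusted p = 0.0396, edgeR). The call was lost with DESeq2 (adjusted p = 0.0609), limma-voom (-0.82), total-count scaling (-0.32), upper-quartile factors (-0.80) and no count filter (-0.85). It was also lost with the replicate block (-0.85) and in the samples coded C (-0.78). The same held without control liver 2 (-0.69) or 4 (-0.77) or knockdown liver 2 (-0.83), 3 (-0.78) or 4 (-0.89). The homeostatic ligand Ccl19 and its receptor Ccr7, which bring dendritic cells and naive T cells to lymph nodes, had log2 fold changes of 0.35 and 0.06 and did not pass (adjusted p = 0.568 and 0.888). Ccl21a and Ccl21b, ligands of Ccr7 from near-identical gene copies, had values of 0.05 and -0.14 (adjusted p = 0.941 and 0.889, edgeR). Values of such copies are uncertain, since the counting could split reads between them. Ccl19 also has more than 1 entry, so the same limit holds for its value. Ccl22, a ligand of Ccr4 made by dendritic cells, had 0.75 ± 0.48 (adjusted p = 0.201), and passed at 1.32 under total-count scaling (adjusted p = 0.0365). Ccl20, the ligand of Ccr6, had 8 counts over the knockdown livers and 0 over the control livers. It was 1.66-fold higher with the same floor, the knockdown count taken as exact, and Ccr6 had 8 counts over each group. Ccl28, a mucosal ligand, had 26 counts over the knockdown livers and 14 over the control livers, and its receptor Ccr10 had 17 over the knockdown livers and 21 over the control livers. Ccr4 had 5 counts over the knockdown livers and 9 over the control livers, and Ccr8 had 4 over the knockdown livers and 2 over the control livers. Cxcl17 had 4 counts over the knockdown livers and 0 over the control livers, and Ccl17 and Ccl1 had 2 and 1 in each group. Ccl26, Cxcl15, Ccl27b and 1 entry each of Ccl19 and Ccl27, 5 in all, had no counts in any liver, and 5 others, all named Ccl21a, Ccl21b, Ccl21c or Ccl27, had 1 count.

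By position, the members that rose fall mostly in 3 gene clusters. Over all genes tested, 29.5% rose and 27.8% fell. On chromosome 11, from Ccl2 at 82035571 to Ccl4 at 83664683, 11 members lie together, and all 7 that could be tested rose. Of these, Ccl2, Ccl3, Ccl4 and Ccl7 had only 79, 39, 42 and 23 counts over the control livers. They passed the count filter through the knockdown livers, so the count for this cluster is partly set by the filter. On chromosome 5, between 90759360 and 95961068, 6 of 9 members were tested and 5 rose. Among them, Cxcl5 and Cxcl2 had only 1 and 32 counts over the control livers. The receptor stretch on chromosome 9 holds 7 members, of which 6 were tested, 4 rose and 1 fell. Ccr1 there had 56 counts over the control livers. Cxcl5, Cxcl2 and Ccr1 also passed the count filter through the knockdown livers, so the counts for these clusters are likewise partly set by it. Of the 25 members placed elsewhere, 13 were tested, 5 rose and 3 fell, among them Cxcl12 on chromosome 6, Ccl25 on chromosome 8 and Ccl27a on chromosome 4.

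The make-up of the ligand transcripts differed between the groups. Divided by the gene length in the authors' table, Cxcl12 took 10.7, 11.1, 15.4 and 12.0% of the summed ligand CPM per kilobase in knockdown livers 1 to 4, against 44.2, 41.8, 44.0 and 37.4% in control livers 1 to 4. Ccl6 took 22.6, 25.4, 20.6 and 28.5% in knockdown livers, against 9.55, 10.2, 7.24 and 8.45% in control livers. Per kilobase, the order of mean ligand levels was Ccl6, Cxcl12, Cxcl10, Ccl5 and Cxcl9 in knockdown livers (64.8, 32.7, 30.4, 25.1 and 21.5 CPM per kilobase) and Cxcl12, Ccl25, Ccl6, Ccl9 and Ccl27a in control livers (66.9, 18.4, 14.2, 12.0 and 8.67 CPM per kilobase). Not divided by length, and with Cxcl12 included, the summed ligand CPM overlapped between the groups. It was 499.6 to 550.3 CPM in knockdown livers and 470.0 to 586 CPM in control livers. This sum gives Cxcl12, at 5627 bases the longest of the ligand genes, more weight than the values per kilobase do. It therefore does not show whether the ligand sums per kilobase overlap. Without Cxcl12, the sums not divided by length were 316 to 376 CPM in knockdown livers and 118 to 172 CPM in control livers.

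**Figure D3:**
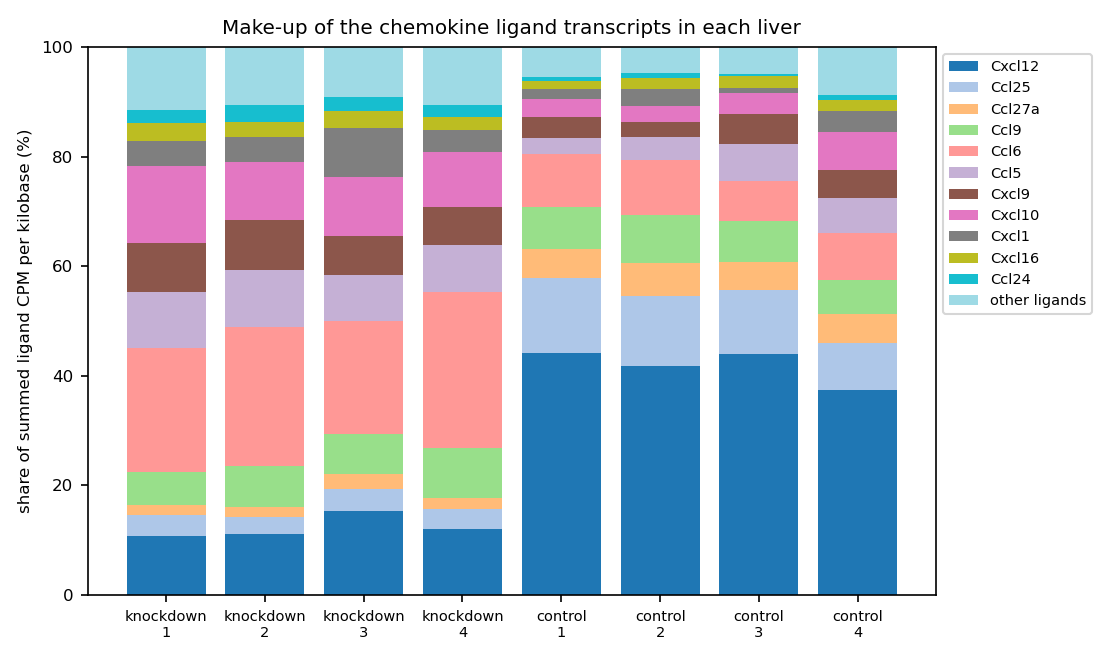
Share of each ligand in the summed ligand CPM per kilobase of gene length (%), one stacked bar per liver, with knockdown livers 1 to 4 on the left and control livers 1 to 4 on the right. Cxcl12, at the base of each bar, takes 10.7 to 15.4% in knockdown livers and 37.4 to 44.2% in control livers.

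**Figure D4:**
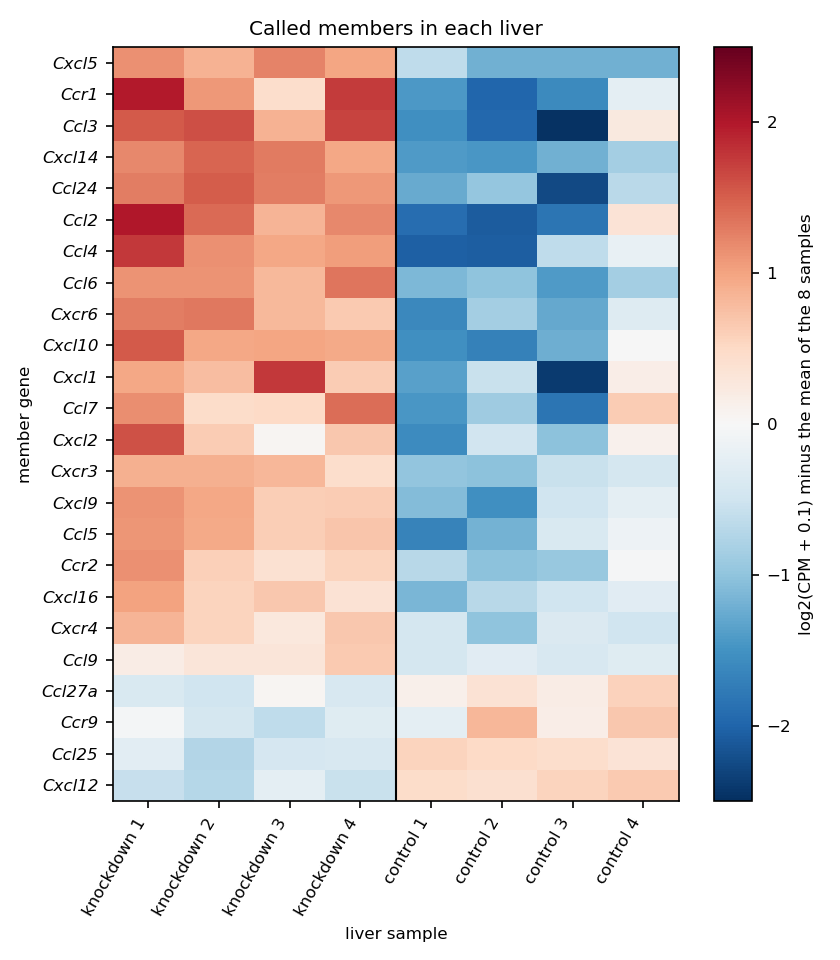
Deviation of log2(CPM + 0.1) from the mean of the 8 livers for the members reported here that rose or fell (rows, ordered by fold change) in each liver (columns, knockdown livers left of the line, control livers right). Red is above and blue below the mean, and control liver 4 is paler than the other controls in Ccl3, Ccl2 and Cxcl10.

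Of 12 further chemokine and atypical receptor genes outside the rule, 8 were tested, of which 4 rose and 1, Ackr4, fell (6 and 0 under total-count scaling). Among all genes tested, 29.5% rose and 27.8% fell, and 63.9% and 7.72% did so under total-count scaling. The number that fell was 0 without knockdown liver 1 or 4 or control liver 3, and 2 without control liver 2 or 4. Ackr3 no longer passed without knockdown liver 1 or control liver 1 or 2. Cx3cl1 (fractalkine), a membrane-bound ligand, held 3.08 ± 0.348 CPM in knockdown livers and 0.653 ± 0.246 CPM in control livers (SD, n = 4 each), a log2 fold change of 2.22 ± 0.26 (SE; adjusted p = 3.50e-05). Its receptor Cx3cr1, found on monocytes and macrophages, rose by 1.23 ± 0.28 (adjusted p = 0.00358), and the dendritic cell receptor gene Xcr1 by 1.66 ± 0.34 (adjusted p = 0.00175). Ackr3, a scavenger of Cxcl12, rose by 1.22 ± 0.38 (adjusted p = 0.0177). Ackr4, a scavenger of Ccl19, Ccl21 and Ccl25, had a log2 fold change of -0.82 ± 0.27 (adjusted p = 0.0222), and was named after its value was seen.

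Of 41 genes that relay or limit chemokine receptor signals, 34 rose and 1 fell, with a median log2 fold change of 1.02 (39 and 0 under total-count scaling; 2 fell without control liver 1). The G protein subunit gene Gnb1 rose by 1.14 ± 0.07 (SE; adjusted p = 7.73e-07), the regulator of G protein signalling Rgs2 by 1.74 ± 0.13 (adjusted p = 1.87e-06), the exchange factor gene Vav1 by 1.63 ± 0.13 (adjusted p = 2.65e-06), and Was, an actin regulator of blood cells, by 1.54 ± 0.13 (adjusted p = 4.13e-06). The gene that fell was Dpp4, a protease that trims Cxcl12 and other ligands, at -0.80 ± 0.10 (adjusted p = 5.64e-05) and -0.23 under total-count scaling, which was named after its value was seen. Of 30 genes of the cytokine, Toll-like receptor, NF-kappaB and interferon pathways that control chemokine genes, including adaptors, kinases and the NF-kappaB inhibitor gene Nfkbia, 28 were tested, 16 rose and 4 fell, with a median of 0.52 (22 and 0 under total-count scaling). The interferon gamma receptor gene Ifngr1 rose by 1.31 ± 0.08 (adjusted p = 6.39e-07), the interferon regulatory factor gene Irf7 by 0.81 ± 0.10 (adjusted p = 4.04e-05) and the NF-kappaB subunit gene Relb by 1.80 ± 0.22 (adjusted p = 5.03e-05). Chuk, an I-kappaB kinase gene, fell by 0.61 ± 0.07 on the log2 scale (adjusted p = 3.27e-05), and its value was -0.04 under total-count scaling. The others that fell were Ikbkg (-0.58), Irf3 (-0.43) and Nfkbia (-0.42). Ifng, an inducer of Cxcl9 and Cxcl10, was singled out after its values were seen. It had 96 counts over the knockdown livers against 5 over the control livers and rose by 3.49 ± 0.62 (adjusted p = 0.000632, edgeR). It passed the count filter through the knockdown livers alone, so its rise is partly set by the filter. Its part in the chemokine values was not tested.

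In the same livers, most tested markers of macrophages, monocytes, T cells, NK cells, dendritic cells and stellate cells rose, most hepatocyte markers fell, and few or no neutrophil, endothelial and B cell markers passed. The part of these cell types in the results was not tested. Beside the counts below stand the shares of all genes tested, 29.5% higher and 27.8% lower. Under total-count scaling these shares were 63.9% and 7.72%. Of 14 macrophage and Kupffer cell markers, 13 were tested and 11 rose, with a summed level of 1772 to 2055 CPM in knockdown livers and 708 to 939 CPM in control livers. The tested members of this list that did not pass were Clec4f and Cd163. Of 12 T cell markers 11 rose and 1, Cd4, fell, at 45.8 to 63.3 CPM in knockdown livers and 16.1 to 29.2 CPM in control livers. Of 8 NK cell markers 6 were tested and 5 rose (19.0 to 24.1 CPM in knockdown livers and 5.28 to 10.6 CPM in control livers), and of 8 dendritic cell markers 7 were tested, 5 rose and 1 fell. The sum of the dendritic list, 219 to 236 CPM in knockdown livers and 98.1 to 132 CPM in control livers, was mostly Bst2, an interferon-induced gene of many cell types, at 180.5 ± 6.65 CPM in knockdown livers and 91.1 ± 12.0 CPM in control livers (SD, n = 4 each). Of 8 monocyte markers 7 were tested, 5 rose and 1, Fn1, which hepatocytes also make, fell, and the sum, mostly Fn1, was 1228 to 1494 CPM in knockdown livers and 1769 to 2189 CPM in control livers. Of 12 stellate cell and fibroblast markers 10 rose, at 590.3 to 1012 CPM in knockdown livers and 214 to 259 CPM in control livers. Of 10 endothelial markers 1 rose and 2 fell, and 4 rose and 0 fell under total-count scaling. Without knockdown liver 1, 0 endothelial markers rose and 5 fell; 2 rose without knockdown liver 3, 0 rose without knockdown liver 2 or control liver 1 or 3, and 3 fell without control liver 4. Their summed level was 295 to 527 CPM in knockdown livers and 445 to 499 CPM in control livers. Of 8 cholangiocyte markers 7 were tested, 4 rose and 1 fell (98.4 to 132 CPM in knockdown livers and 64.6 to 82.9 CPM in control livers), and 0 fell without knockdown liver 1 or 2 or control liver 2, 3 or 4. Of 8 B and plasma cell markers 6 were tested and 0 passed with edgeR, 0 had an unadjusted p under 0.05 and 0 passed with DESeq2, while 2 (Cd79a and Cd79b) rose under total-count scaling, 1 (Cd79a) rose without knockdown liver 2 and 1 (Mzb1) fell without knockdown liver 3 (4.18 to 8.39 CPM in knockdown livers and 3.79 to 6.90 CPM in control livers). Of 12 hepatocyte markers 10 fell, and under total-count scaling 7 fell and 2 rose. No marker of any list was at 0 in all livers.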

How the data were processed

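RNA from 8 livers (4 per group) was extracted with Trizol and depleted of ribosomal RNA, per the labels' protocols. Per the submitters' processing notes, the genome build was mm10 and the tools named are SAMtools 1.9, Bowtie2 2.2.9, fastp 0.19.5 and GATK 3.8. Counter, annotation and strandedness are not stated. The authors deposited estimated counts per gene, not normalised, of which 10.9% were not whole and were rounded. They also deposited their own comparison, with fold changes (a ratio of knockdown over control), their log2 values, p-values and adjusted p-values per gene, and a gene length in bases (other); their file is named for DESeq2, with its settings not stated. The 645 assembled loci without an identifier (0.676 to 1.08% of counts) were left out.

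Counts were fitted in R 4.3.3 with edgeR 4.0.16 (filterByExpr, TMM, glmQLFit, glmQLFTest) over all genes, and p-values were adjusted by Benjamini-Hochberg. A gene is said to have risen or fallen where the adjusted p was under 0.05. TMM factors were 1.15 to 1.26 in knockdown and 0.776 to 0.890 in control livers. Normalised CPM is the count divided by the filtered total times that factor. Alternatives used DESeq2 1.42.0, limma-voom 3.58.1, other factors, other filters, the replicate number as a block, and fewer samples. The procedure was tested on simulated data with known changes, of which 69.4% were recovered at a log2 fold change of 1 and 100% at 2. Few genes changed in the simulation, and as many up as down. It therefore does not test the normalisation where as many genes differ as in these livers. Positions are from GENCODE mouse release M21 (mm10), which places 52 of the 59 members. Full values are given for the 24 tested members with the smallest p, except 1 that is counted but not reported here, and for Ccr9 and some others chosen after their values were seen; up to 4 changed genes with the smallest p are named per related list. Members and lists were chosen with earlier results of these data known. No label says that samples came from separate animals, so the p-values reflect sample-to-sample spread, which may be technical; replicates differed by more than counting error (lowest chi-square per degree of freedom 8.94). Counting intervals cover counting error only, and floors cover only that of the control count.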

Additional observations from a re-analysis of the deposited data

Results flagged for a closer look

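Among the 33 tested members, 66 groups of 4 livers were checked for a liver whose gap to its nearest neighbour took a larger share of the group's range than Dixon's 95% critical value for 4 samples. This met 6 groups, and chance alone gives about 1 in 20. Control liver 4 was the liver in 3 of them, all above the other controls: Ccl2 (gap 0.956 of the range), Cxcl11 (0.867) and Ccl3 (0.836). In the knockdown group, Cxcl10 was high in liver 1 (44.0 CPM, gap 0.926 of the range) and Cxcr3 was low in liver 4 (1.85 CPM, gap 0.884 of the range). For Cxcl5 the only control count stood in control liver 1, so its gap was the whole range (1.00).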

How the results depend on the processing

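Of the 25 members called, 22 kept their call and direction in each of the 18 alternatives that tested them, and Ccl7, Ccl27a and Ccr9 did not. The number of members that fell, 4, was 2 under total-count scaling and 2 in the samples coded C alone, and 22 rose in each of these. Leaving out each liver gave 20 to 22 higher and 3 to 4 lower, counting Ccl8 where it passed the filter. Over all genes, total-count scaling gave 9831 higher and 1187 lower against 4528 and 4272, and leaving out each liver gave 4091 to 4811 higher and 3764 to 4493 lower. A minimum mean of 1 CPM left Ccl7, Ccr9, Cxcl2 and Cxcl5 without a value. Signs turned only for members that did not pass: under total-count scaling for Cxcl11 (0.0042) and Ccl21b (0.42), and for Ccl21a with limma-voom (-0.31), the replicate block (-0.086) and the samples coded C (-0.23). Without single livers Ccl21a ranged from -0.28 to 0.41, Ccl21b from -0.92 to 0.29, Ccl19 from -0.091 to 0.70, Cxcr2 from -0.075 to 0.42 and Ccr7 from -0.17 to 0.17; the cause was not tested. Deviations of same-numbered livers correlated between -0.13 and 0.15, and 1 of 4 knockdown livers, liver 4, matched its own number best. Both livers numbered 4 are coded D. With 4 pairs, these values cannot settle whether the replicate numbers stand for a shared factor. With the replicate number as a block, 21 members rose and 3 fell. The 26 members under the count filter have no test in the main edgeR fit, and depth limits their ratios. In edgeR's fit without a count filter, Ccl8 (log2 fold change 3.67, adjusted p = 0.00136), Cxcl3 (5.52, 0.00224) and Cxcl13 (3.08, 0.0144) passed. Ccl20 (3.83, 0.0663), Ccl11 (1.73, 0.171) and the others with counts did not pass there.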

Other observations

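Within the T cell list, Cd4 went against the other markers: it held 2.07 ± 0.341 CPM in knockdown livers and 6.99 ± 0.550 CPM in control livers (SD, n = 4 each), a log2 fold change of -1.75 ± 0.16 (SE; adjusted p = 7.12e-06, edgeR), while Cd8a held 10.05 ± 1.85 CPM in knockdown livers and 2.26 ± 1.37 CPM in control livers. Within the dendritic cell list, Siglech, a marker of plasmacytoid dendritic cells, had a log2 fold change of -0.99 ± 0.28 (adjusted p = 0.0109), and Itgax had 2.36 ± 0.35 (adjusted p = 0.000202). These genes were chosen after their values were seen.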
